A study of Homo sapiens with 30 samples.

Results

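HepG2 cells, an established line from a human liver carcinoma, were exposed for 24 h to the ethanol extract of Samul-tang at 500 µg/mL, the high dose, and compared with cells given vehicle. Samul-tang is a traditional Korean herbal formula built on Rehmannia root, Angelica root, peony root and Cnidium rhizome. The comparison took 5 of the 30 libraries of the series by their labels: the 2 labelled Samul-tang high dose (replicates 2 and 3) and the 3 labelled vehicle (replicates 1, 2 and 3). Vehicle was DMSO, at 0.1% by the sample labels and at 2% by the series text, and no label gives the DMSO in the extract wells. For the dose response, 2 libraries at 100 µg/mL (medium) and 2 at 20 µg/mL (low) were used. Single libraries of Sagunja-tang, another formula, stand beside them as values only. All groups share the line and the exposure time, and the cells carried no transgene or edit that the labels name. Nothing in the labels says that replicates came from separate cultures. The spread behind each p-value was estimated over 27 libraries, of which 18 were exposed to Palmul-tang or Sibjeondaebo-tang, 2 further formulas used here for the spread alone, and that spread may be technical.

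A carcinoma line in plain medium is a limited model of liver, and it meets the whole extract without gut absorption. Hepatocytes sense foreign and reactive compounds with several transcription factors. The aryl hydrocarbon receptor (AHR) binds flat aromatic ligands and turns on CYP1 enzymes, and NRF2 is released from its inhibitor KEAP1 by reactive compounds and turns on glutathione, quinone and aldehyde metabolism. SREBP factors set sterol and fat synthesis, HIF factors the response to low oxygen, and HSF1 the chaperone genes. Bone morphogenetic protein (BMP) signals acting through SMAD factors drive the iron hormone hepcidin.

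The 5 libraries held 25715748 to 37707232 expected counts. The vehicle libraries carry the label prefix E1 and all Samul-tang and Sagunja-tang libraries the prefix 14 and no label explains the prefixes, while every title names the same batch, BatchE. High dose against vehicle is therefore also one label set against the other, and the extract and the set cannot be told apart there, whereas the high and low doses lie within one set. On the first principal component, with 13.6% of the variance, vehicle lay between -33.3 and -31.3 and Samul-tang high at 3.13 and 4.20. The share of mitochondrial transcripts was 12.4% to 14.5% in vehicle and 15.4% and 16.7% in the high dose. It was 12.9% and 11.2% in the medium dose and 14.6% and 15.4% in the low dose. An unnamed gene, ENSG00000280800, was at 852 to 1160 CPM in vehicle and at 70.3 and 74.0 CPM in the high dose. This gene was about as low at the other doses, at 49.7 and 81.3 CPM in the medium and 77.1 and 66.4 CPM in the low dose. The Sagunja-tang libraries had 47.3 to 121 CPM of it. A fit without mitochondrially encoded genes was run as an alternative, and the part of the other shifts in the results was not tested. CPM is a count as a share of its library, on the usual counts-per-million scale with TMM factors, and in bulk cultures fewer cells expressing a gene and less of its RNA per cell cannot be told apart. All 8 hepatocyte and HepG2 markers were detected, with a summed level of 52800 to 54900 CPM in vehicle and 53100 and 54500 CPM in the high dose. Fibroblast markers summed to 6.55 to 6.97 CPM and 5.19 and 5.47 CPM, with 3 to 5 of 8 at 0, and endothelial markers to 3.24 to 3.54 CPM and 2.74 and 2.86 CPM, with 1 of 6 at 0. The immune sum, 1170 to 1290 CPM and 1510 and 1590 CPM with 3 or 4 of 7 at 0, was almost all lysozyme (LYZ, called higher), and PTPRC and CD3E were at 0 in all 5 libraries. Cholangiocyte markers summed to 294 CPM in each vehicle library and to 337 and 342 CPM, with 1 or 2 of 5 at 0.

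The high dose differed from vehicle in many genes and in most of them by little. A gene is called here at an adjusted p under 0.05 in edgeR. Calls covered 2978 of 16083 tested genes (18.5%), made up of 1580 higher (9.82%) and 1398 lower (8.69%), and the median log2 fold change of all tested genes was -0.00397. Only 270 of the higher calls (1.68% of tested genes) and 320 of the lower calls (1.99%) reached a log2 change of 0.5. A change of 1 was reached by 56 (0.348%) and 84 (0.522%). Leaving out Samul-tang high replicate 2 left 1300 calls, and leaving out replicate 3 left 1799. Without any overlap of the 5 libraries, 24% of genes lay higher and 24.1% lower, which is the background for every statement below that libraries did not overlap. Set against the low dose, within one label set, the high dose had 229 genes called (1.42%), 114 higher (0.709%) and 115 lower (0.715%). This count of high against low was 85 with Samul-tang low replicate 3 omitted, 86 with high replicate 2 omitted, and 108 with high replicate 3 or low replicate 2 omitted. The medium and low doses against vehicle, which share its libraries, had 19.8% and 11.3% of genes called. Every high dose list count below stands against shares of all genes. These are 9.82% higher and 8.69% lower against vehicle, and 0.709% higher and 0.715% lower against the low dose.

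**Figure D1:**
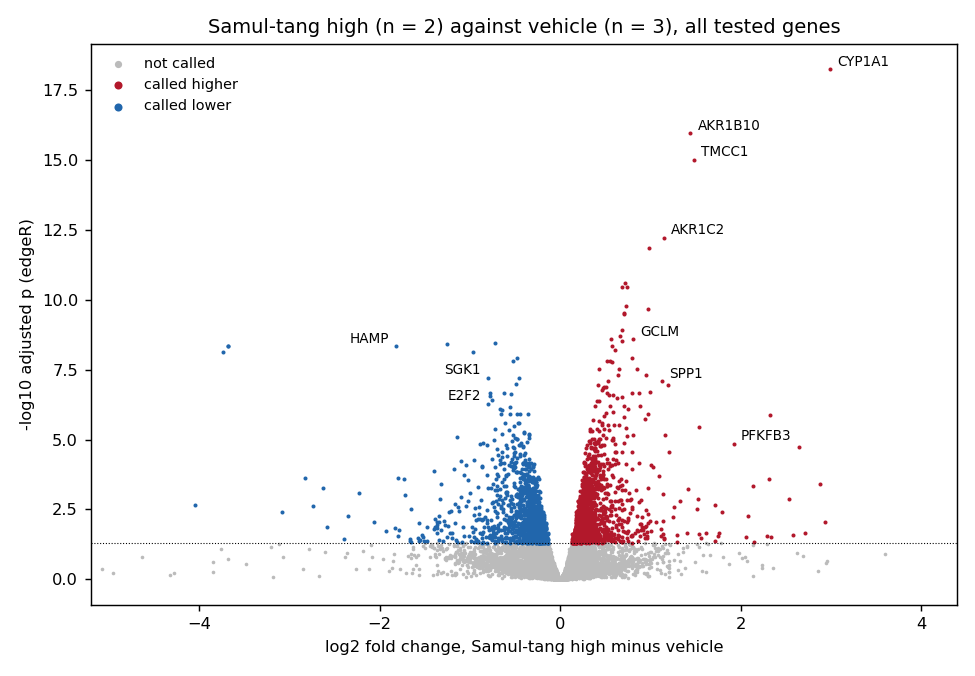
Log2 fold change of each tested gene, Samul-tang high minus vehicle (x axis), against -log10 of the adjusted p from edgeR (y axis), with 1 point per gene and a dotted line at the threshold of 0.05. Red points are the 1580 genes called higher and blue points the 1398 called lower; CYP1A1, at 2.99, lies highest on the right, and HAMP, at -1.82, is labelled on the left.

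Targets of the aryl hydrocarbon receptor were higher, and CYP1A1 had the smallest adjusted p of all tested genes. CYP1A1 is the dioxin-inducible P450 that oxidises polycyclic aromatics (ENSG00000140465, chromosome 15, 74719542 to 74725610, minus strand). It was at 12.5, 9.56 and 11.7 CPM in the vehicle libraries, at 23.1 and 23.4 CPM in the low dose, at 47.2 and 45.3 CPM in the medium dose and at 88.3 and 89.0 CPM in the high dose. Every dose lay above the one before it, with no overlap of libraries. The log2 fold change of high against vehicle was 2.99 ± 0.092 (SE, adjusted p 5.79e-19), and that of high against low was 1.93 ± 0.097 (adjusted p 1.07e-13). AHRR, the repressor that AHR induces against itself, was at 0.220, 0.276 and 0.186 CPM in vehicle and 0.620 and 0.737 CPM in the high dose, with a log2 change of 1.53 ± 0.33 (adjusted p 0.00132). Its high and vehicle libraries did not overlap, although its level is low. Against the low dose AHRR was not called (0.33 ± 0.32, adjusted p 0.836). ALDH3A1, an aldehyde dehydrogenase under AHR control, was at 1.69, 1.6 and 1.53 CPM in vehicle and at 3.34 and 3.12 CPM in the high dose. The 2 high libraries lay at about the same level above all 3 vehicle libraries, and ALDH3A1 rose both against vehicle (log2 1.01 ± 0.17, adjusted p 8.03e-05) and against the low dose (1.22 ± 0.19, adjusted p 0.000246). UGT1A1, which joins glucuronic acid to bilirubin, rose by 0.71 ± 0.091 against vehicle, with the caution that UGT1A genes share exons and their reads are split by estimate.

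In all, 7 of 11 tested AHR pathway genes were higher and 0 lower than in vehicle, with a median log2 change of 0.73, where 9.82% of all genes were called higher. DESeq2 called 5 of the 11. The high dose had 4 higher and 0 lower than the low dose, with a median of 0.60. CYP1A2, the neighbouring hepatic CYP1 gene, was at 0.0276 to 0.0372 CPM in vehicle and at 0.377 and 0.177 CPM in the high dose. Its call against vehicle (log2 2.93 ± 0.79, adjusted p 0.009) was lost without Samul-tang high replicate 2 (log2 change 2.27). Against the low dose CYP1A2 was not called (2.00 ± 0.78, adjusted p 0.315). AHR itself, the receptor, was not called, with a log2 change of -0.13 ± 0.083 (adjusted p 0.296). The promoter of CYP1A1 is shown because this gene led the response. It is the 250 bases before the start in RefSeq on GRCh38.p14, chr15:74725529-74725778, minus strand, with the AHR site NGCGTG in capitals, whose first base lies 58 bases before the start.
CYP1A1: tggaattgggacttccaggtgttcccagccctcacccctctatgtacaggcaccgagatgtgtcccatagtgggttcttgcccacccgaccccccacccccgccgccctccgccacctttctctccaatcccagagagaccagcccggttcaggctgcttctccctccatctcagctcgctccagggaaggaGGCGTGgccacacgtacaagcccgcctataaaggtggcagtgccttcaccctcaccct
Of 9 AHR pathway genes with a promoter in the table, 4 held NGCGTG on either strand in this window, beside 36.1% of 27305 genes. It was present in 2 of the 6 called members and in 2 of 3 that were not called.

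NRF2 pathway genes rose in most of their number, against vehicle and against the low dose. Of 32 tested members 25 were higher and 0 lower than in vehicle (median log2 change 0.42), and 22 were higher and 0 lower than in the low dose (median 0.37), where 0.709% of all genes were called higher. With single libraries omitted, the number higher was 21 to 24 against vehicle and 17 to 19 against the low dose. The aldo-keto reductases came first. AKR1B10, which reduces reactive aldehydes and retinal (ENSG00000198074, chromosome 7, 134527592 to 134541408, plus strand), was at 44.6, 40.6 and 42.1 CPM in vehicle, 38.6 and 42.1 CPM in the low dose, 53.3 and 56.4 CPM in the medium dose and 111 and 119 CPM in the high dose. The low dose lay within or just below the vehicle libraries, and both high libraries lay far above all other Samul-tang and vehicle libraries. The log2 change was 1.44 ± 0.064 against vehicle (adjusted p 1.11e-16) and 1.51 ± 0.073 against the low dose (adjusted p 2.26e-15). AKR1C2, a hydroxysteroid dehydrogenase, was at 172, 162 and 166 CPM in vehicle and 387 and 355 CPM in the high dose (log2 1.15 ± 0.069, adjusted p 6.12e-13), and AKR1C1 moved beside it (0.97 ± 0.073). AKR1C genes are near copies of each other, so their separate levels are uncertain.

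Glutathione genes of the NRF2 list rose with the reductases. GCLM, the modifier subunit of glutamate-cysteine ligase (chromosome 1, 93885205 to 93909456), was at 31.3, 27.9 and 30.5 CPM in vehicle, 32.0 and 31.7 CPM in the low dose, and 51.3 and 53.6 CPM in the high dose. Vehicle and low dose lay together and the high dose above both, with log2 changes of 0.81 ± 0.073 (adjusted p 2.59e-09) and 0.72 ± 0.081 (adjusted p 8.13e-07). The catalytic subunit GCLC rose by 0.43 ± 0.044 and 0.37 ± 0.049 in the same comparisons. SLC7A11, the transporter that brings in cystine for glutathione, was at 29.9, 25.1 and 28.6 CPM in vehicle and 51.1 and 57.5 CPM in the high dose. It changed by 0.97 ± 0.11 against vehicle (adjusted p 1.19e-06) and 0.90 ± 0.12 against the low dose (adjusted p 6.97e-05), again with no overlap. GPX2, a glutathione peroxidase (chromosome 14, 64939152 to 64942905), was at 431, 404 and 408 CPM in vehicle and at 815 and 711 CPM in the high dose, a log2 change of 0.88 ± 0.093 (adjusted p 6.24e-07). Against the low dose its change of 0.57 lost the call without Samul-tang high replicate 2 (adjusted p 0.0984) or low replicate 3 (adjusted p 0.0639).

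Quinone, iron and export genes of the same list followed. NQO1, the quinone reductase that also answers to AHR, was at 390, 387 and 370 CPM in vehicle, 385 and 373 CPM in the low dose and 622 and 650 CPM in the high dose. The high dose stood above both, and its log2 change was 0.73 ± 0.058 against vehicle (adjusted p 1.64e-10). OSGIN1 (0.69 ± 0.062) and PIR (0.79 ± 0.077), both known NRF2 targets, the sulfiredoxin SRXN1 (0.27 ± 0.045) and the transporters ABCC2 (0.42 ± 0.046) and ABCC3 (0.51 ± 0.056), which export conjugates into bile and blood, rose against vehicle and also against the low dose. HMOX1, which opens the heme ring and is a known NRF2 target, was at 70.9, 63.3 and 65.0 CPM in vehicle and 87.5 and 89.9 CPM in the high dose, a log2 change of only 0.42 ± 0.066 (adjusted p 3.72e-05). TKT of the pentose phosphate path rose by 0.43 ± 0.058. Neither NFE2L2, the gene of NRF2 itself (-0.06 ± 0.05, adjusted p 0.411), nor KEAP1 (0.04 ± 0.054, adjusted p 0.641) was called.

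The promoters of GCLM (chr1:93909431-93909680, minus strand) and GPX2 (chr14:64942746-64942995, minus strand) are shown because both rose and both hold the NRF2 site TGACNNNGC, here as its reverse complement in capitals, with the first base 34 and 122 bases before the start.
GCLM: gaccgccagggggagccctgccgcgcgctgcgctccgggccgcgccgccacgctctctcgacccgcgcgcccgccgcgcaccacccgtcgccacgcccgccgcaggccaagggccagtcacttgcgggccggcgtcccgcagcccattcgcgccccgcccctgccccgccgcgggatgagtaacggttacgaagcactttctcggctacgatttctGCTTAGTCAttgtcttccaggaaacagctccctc
GPX2: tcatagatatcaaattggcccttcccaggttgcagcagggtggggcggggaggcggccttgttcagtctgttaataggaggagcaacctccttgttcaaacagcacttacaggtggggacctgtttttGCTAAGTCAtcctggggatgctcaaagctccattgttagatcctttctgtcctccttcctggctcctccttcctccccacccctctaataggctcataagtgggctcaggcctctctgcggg
This motif stood in 8 of 25 NRF2 pathway genes with a promoter listed, beside 13.2% of all genes. It was present in 5 of the 20 called members and in 2 of 4 that were tested and not called.

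**Figure D2:**
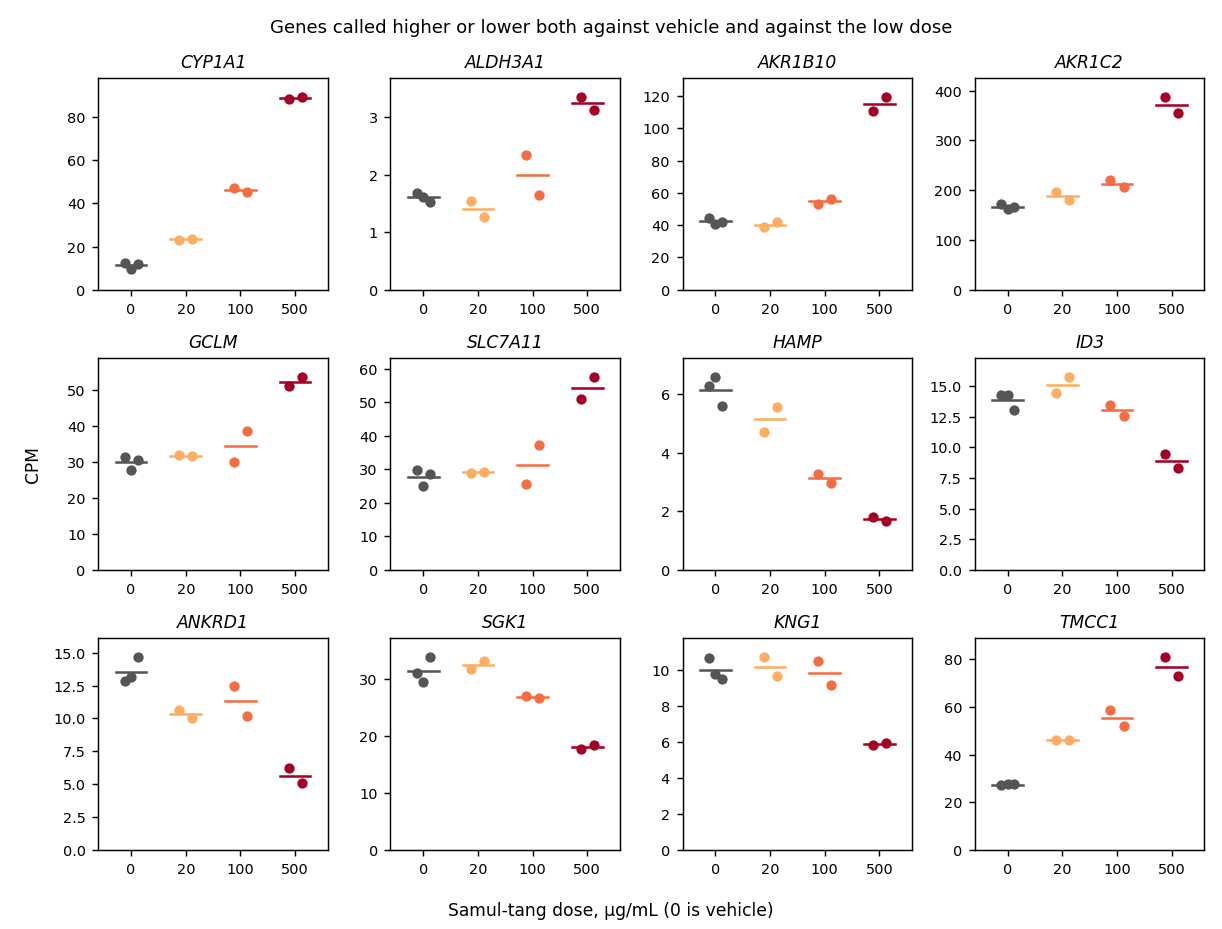
CPM (y axis of each panel, from 0) against Samul-tang dose in µg/mL, with 0 for vehicle (x axis), for 12 genes; each point is 1 library and each bar the mean of 2 or 3 libraries. The genes were picked as called both against vehicle and against the low dose. By that choice the high dose lies apart from the low dose in every panel, for example 111 and 119 CPM beside 38.6 and 42.1 CPM for AKR1B10.

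Other drug metabolism genes did not move as a group. Of 20 conjugation enzymes 4 were higher and 5 lower than in vehicle (median 0.01), beside 9.82% and 8.69% of all genes. Omitting Samul-tang high replicate 2 left 1 lower and omitting replicate 3 left 3. MGST1, a membrane glutathione transferase, rose by 0.62 ± 0.092 and SULT1A2, a phenol sulfotransferase with near copies, by 0.32 ± 0.068, while GSTA1 fell by 0.38 on the log2 scale (SE 0.08, adjusted p 0.00112). Of 16 drug transporters 5 were higher and 2 lower, and 3 higher without Samul-tang high replicate 2, with ABCC6 falling by 0.46 and the uptake transporter SLCO2B1 by 0.34. Of 10 tested genes of the CYP2, CYP3A, PXR and CAR list 0 were called in either direction by edgeR, 3 had an unadjusted p under 0.05, and DESeq2 called 1. CYP3A4, the main hepatic drug oxidase, was at 0.330, 0.221 and 0.261 CPM in vehicle and 0.135 and 0.354 CPM in the high dose. These values overlap, and its log2 change was -0.15 ± 0.45 (adjusted p 0.863). NR1I2, the gene of its regulator PXR, was at -0.14 ± 0.085 (adjusted p 0.262).

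Genes of sterol and fat synthesis were lower. Of 20 cholesterol synthesis genes 13 were lower and 0 higher than in vehicle (median log2 change -0.22, beside 8.69% of genes called lower). With single libraries omitted, the number lower was 10 to 12. HMGCS1, the synthase that feeds the mevalonate path (chromosome 5, 43289395 to 43313512), was at 635, 607 and 598 CPM in vehicle, 541 and 548 CPM in the low dose, 549 and 525 CPM in the medium dose and 431 and 427 CPM in the high dose. The doses lay below vehicle without overlap and the high dose lay lowest, at -0.52 ± 0.051 against vehicle (adjusted p 1.53e-08) and -0.34 ± 0.055 against the low dose (adjusted p 0.000272). LSS, which closes the sterol rings, was at 262, 283 and 286 CPM in vehicle and 199 and 198 CPM in the high dose (-0.48 ± 0.06, adjusted p 1.2e-06). MVK (-0.32 ± 0.054), IDI1 (-0.29 ± 0.05) and TM7SF2 (-0.39 ± 0.064) fell too. Between high and low dose 6 members were called lower and 0 higher, and 1 was called when any of the 4 libraries was left out.

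The rest of the SREBP program was mixed. SREBF2, the gene of the sterol-sensing factor, was not called (-0.11 ± 0.049, adjusted p 0.112). INSIG2, which holds SREBP in the endoplasmic reticulum, rose by 0.32 ± 0.056. In fatty acid and triglyceride synthesis 10 of 19 genes were lower and 0 higher (median -0.17), and 6 were lower without Samul-tang high replicate 2. ACSS2, which makes acetyl-CoA from acetate, was at 167, 164 and 169 CPM in vehicle, 158 and 160 CPM in the low dose and 120 and 119 CPM in the high dose. The high dose stood below the vehicle and low dose libraries, at -0.48 ± 0.047 against vehicle (adjusted p 1.18e-08) and -0.41 ± 0.051 against the low dose (adjusted p 4.1e-06). DGAT2, the last step of triglyceride synthesis, fell by 0.44 against vehicle (SE 0.055, adjusted p 1.2e-06). PLIN2, a lipid droplet coat protein, went the other way, from 192, 203 and 197 CPM to 293 and 292 CPM (0.57 ± 0.056, adjusted p 1.72e-08). CREB3L3, a liver factor of fasting, rose by 0.66 ± 0.12, and NR0B2 (SHP), the repressor of bile acid synthesis, by 0.39 ± 0.07. Of 17 genes of fatty acid oxidation and PPARA, 7 were higher and 3 lower (median 0.05), beside 9.82% and 8.69% of all genes. Omitting Samul-tang high replicate 2 left 4 higher and omitting vehicle replicate 2 left 3. The lower count was 1 without either high replicate. No sterol site TCACNCCAC was found in the 250 bases of 15 cholesterol synthesis genes, where 1.09% of all genes had it.

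Of the hypoxia response genes most were higher than in vehicle, and of the glycolysis genes fewer. Of 22 hypoxia response genes 16 were higher and 0 lower (median log2 change 0.44), and of 22 glycolysis genes 10 were higher and 0 lower (median 0.18), beside 9.82% of all genes, the glycolysis count being 5 with Samul-tang high replicate 2 omitted and 6 with replicate 3 omitted. PFKFB3, which makes the activator of phosphofructokinase (chromosome 10, 6144934 to 6254644), was at 2.24, 2.68 and 2.23 CPM in vehicle, 4.92 and 5.31 CPM in the low dose, 5.47 and 5.07 CPM in the medium dose and 9.62 and 8.57 CPM in the high dose. All doses lay above vehicle, with a log2 change at the high dose of 1.92 ± 0.24 (adjusted p 1.39e-05), and the step from low to high was not called (0.83 ± 0.24, adjusted p 0.115). NDRG1, a classic hypoxia gene, was at 31.8, 37.1 and 41.6 CPM in vehicle and 76.0 and 70.5 CPM in the high dose (0.99 ± 0.097, adjusted p 1.97e-07). PDK1, which closes pyruvate entry to the mitochondria, was at 33.8, 33.9 and 33.7 CPM in vehicle, 37.7 and 40.6 CPM in the low dose and 50.5 and 52.6 CPM in the high dose. It was one of the hypoxia genes that also rose against the low dose (0.39 ± 0.063, adjusted p 0.000273). ANKRD37 (1.09 ± 0.2), VEGFA, the vessel growth factor (0.52 ± 0.059), BHLHE40 (0.68 ± 0.078), PFKFB4 (0.71 ± 0.085) and PKM, pyruvate kinase (0.40 ± 0.059), rose against vehicle. HIF1A, the oxygen-sensitive subunit, rose by only 0.28 ± 0.06 (adjusted p 0.00136). Between high and low dose 2 hypoxia and 2 glycolysis genes were called higher and 0 lower, beside 0.709% of all genes. The hypoxia count was 1 without any one of the 4 libraries, and the glycolysis count 1 without Samul-tang high replicate 3 and 0 without any other. The core HIF site ACGTG stood in 9 of 17 hypoxia promoters and 13 of 20 glycolysis promoters, beside 21.7% of all genes. Among hypoxia genes it stood in 8 of 12 called and 1 of 5 not called, and among glycolysis genes in 6 of 9 and 7 of 11.

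Of 20 genes of the insulin and FOXO list 8 were lower and 3 higher (median -0.21), beside 8.69% and 9.82% of all genes. Omitting Samul-tang high replicate 2 left 4 lower, omitting high replicate 3 or vehicle replicate 3 left 5, and omitting vehicle replicate 2 left 1 higher. SLC2A4, the insulin-responsive glucose carrier GLUT4, was at 13.3, 12.9 and 12.3 CPM in vehicle, 7.61 and 7.90 CPM in the low dose, 7.22 and 8.01 CPM in the medium dose and 6.90 and 6.16 CPM in the high dose. All extract libraries lay well below vehicle, with a high dose change of -0.97 ± 0.093 (adjusted p 7.65e-09). The high dose did not differ from the low dose by the test (-0.25 ± 0.11, adjusted p 0.395). SLC2A2, the main liver glucose carrier, fell by 0.38 (SE 0.063). The arrestins TXNIP and ARRDC4, which curb glucose uptake, fell by 0.34 and 0.75. IGFBP1, the insulin-repressed binding protein, was at 103, 116 and 136 CPM in vehicle and 211 and 201 CPM in the high dose (0.80 ± 0.17, adjusted p 0.00254).

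Among chaperone genes, similar numbers were called higher than vehicle at each dose. Of 24 heat shock protein genes 12 were higher and 1 lower than in vehicle at the high dose (median 0.23), beside 9.82% and 8.69% of all genes. The counts were 13 higher and 0 lower at the medium dose (10.3% and 9.57% of all genes called) and 11 higher and 0 lower at the low dose (6.47% and 4.79%). These 3 comparisons share the vehicle libraries. Between high and low dose 0 of 24 were called by edgeR or DESeq2, 3 had an unadjusted p under 0.05, and the median was 0.02. HSPA1A, the inducible HSP70 (chromosome 6, 31815464 to 31817946, with a near copy whose reads may be split with it), was at 61.6, 55.8 and 58.0 CPM in vehicle, 109 and 117 CPM in the low dose, 112 and 108 CPM in the medium dose and 114 and 116 CPM in the high dose. The step lay between vehicle and the lowest dose, with 0.98 ± 0.063 at the high dose (adjusted p 1.4e-12) and 0.02 ± 0.068 from low to high (adjusted p 0.974). HSPA8, the constitutive HSC70, was at 1196, 1070 and 1037 CPM in vehicle and 1795 and 1801 CPM in the high dose (0.71 ± 0.058, adjusted p 3.19e-10). CHORDC1, a co-chaperone of HSP90, was at 51.5, 43.6 and 50.2 CPM in vehicle and 69.5 and 70.5 CPM in the high dose (0.53 ± 0.058, adjusted p 8.32e-08), and its low dose libraries, at 72.8 and 70.0 CPM, were no lower. DNAJB4 rose by 0.87 ± 0.098. HSF1, the heat shock factor, had a log2 change of 0.16 ± 0.056 (adjusted p 0.0425), a call lost without either high replicate (adjusted p 0.0675 and 0.264) and without vehicle replicate 1 (0.107) or 3 (0.104), and also with no filter (0.0531) and with the replicate block (0.061).

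The promoters of HSPA8 (chr11:123062137-123062386, minus strand) and CHORDC1 (chr11:90223050-90223299, minus strand) show the heat shock site TTCNNGAA in capitals, 2 copies in HSPA8 and 3 in CHORDC1.
HSPA8: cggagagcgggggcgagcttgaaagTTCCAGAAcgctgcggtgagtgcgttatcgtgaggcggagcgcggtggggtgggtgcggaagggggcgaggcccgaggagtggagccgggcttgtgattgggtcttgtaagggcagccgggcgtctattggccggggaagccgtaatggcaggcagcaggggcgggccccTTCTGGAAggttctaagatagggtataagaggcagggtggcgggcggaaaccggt
CHORDC1: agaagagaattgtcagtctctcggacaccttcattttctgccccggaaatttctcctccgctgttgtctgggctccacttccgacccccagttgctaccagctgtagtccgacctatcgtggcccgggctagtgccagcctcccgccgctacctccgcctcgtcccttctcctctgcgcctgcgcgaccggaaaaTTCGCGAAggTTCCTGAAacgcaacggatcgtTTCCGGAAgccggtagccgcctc
The site stood in 7 of 21 heat shock protein genes with a promoter listed, beside 8.12% of all genes, with 3 among the 11 called members and 4 among the 10 others.

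**Figure D3:**
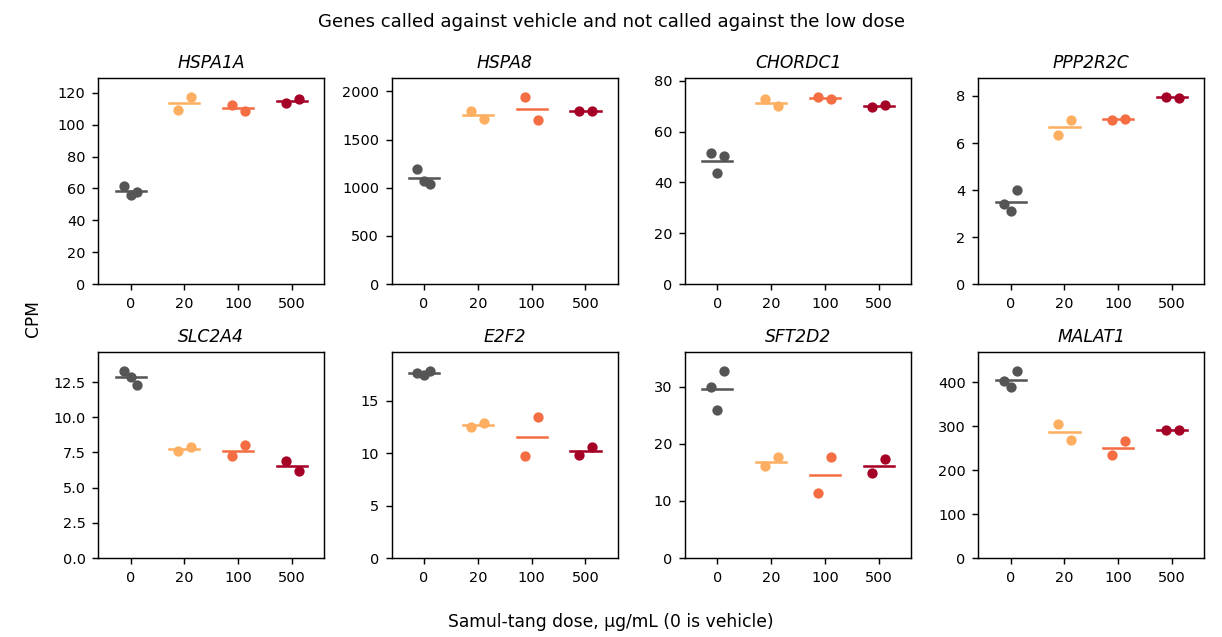
CPM (y axis of each panel, from 0) against Samul-tang dose in µg/mL, with 0 for vehicle (x axis), for 8 genes called against vehicle and not against the low dose; each point is 1 library and each bar the mean of 2 or 3 libraries. The extract libraries of HSPA1A lie between 108 and 117 CPM at all 3 doses, apart from vehicle at 55.8 to 61.6 CPM.

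Of 21 ER chaperone and ER stress genes 6 were higher and 0 lower at the high dose (median 0.08), 9 higher and 1 lower at the medium dose and 7 higher and 0 lower at the low dose, beside 9.82%, 10.3% and 6.47% of all genes called higher. At the high dose these included MANF, a secreted ER stress factor, at 0.37 ± 0.065 and DNAJB9 at 0.55 ± 0.12. The ER HSP70 gene HSPA5 was at 944, 934 and 987 CPM in vehicle and 956 and 1011 CPM in the high dose. These overlap (0.04 ± 0.05, adjusted p 0.603). In the integrated stress response, which slows translation and turns on amino acid genes through ATF4, 10 of 22 genes were higher and 1 lower (median 0.18), and 5 were higher and 0 lower than in the low dose, or 3 without Samul-tang high replicate 2, low replicate 2 or low replicate 3. SLC7A11, given above with the NRF2 genes, is also in this list and is counted in both. ASNS, asparagine synthetase, was at 45.1, 43.7 and 40.6 CPM in vehicle, 43.3 and 41.6 CPM in the low dose and 61.2 and 60.3 CPM in the high dose. The high dose stood above both, by 0.49 ± 0.055 against vehicle (adjusted p 1.35e-07) and 0.52 ± 0.061 against low (adjusted p 1.83e-06). STC2, a secreted glycoprotein of the same response, rose by 0.71 ± 0.057 and 0.48 ± 0.063. ATF4 rose by 0.37 ± 0.06 and DDIT4, an inhibitor of mTORC1, by 0.64 ± 0.097 against vehicle. DDIT3 (CHOP), the pro-death factor of this response, was at 8.73, 8.62 and 8.38 CPM in vehicle and 7.52 and 7.63 CPM in the high dose and was not called (-0.18 ± 0.098, adjusted p 0.21). Of 20 aminoacyl-tRNA synthetases 7 were higher and 0 lower, and 3 were higher without Samul-tang high replicate 2; TARS1 was at 0.36 ± 0.047. The ATF4 site TGATGNAAT was found in 0 of 21 promoters, beside 1.09% of all genes.

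The leucine zipper factors of the C/EBP family split. CEBPB, a factor of stress and acute phase, was at 17.2, 21.6 and 24.4 CPM in vehicle and 41.2 and 40.4 CPM in the high dose (0.95 ± 0.094, adjusted p 4.79e-08), and CEBPD rose by 0.80 ± 0.091. CEBPA, the factor of the quiescent hepatocyte, was at 92.2, 104 and 95.04 CPM in vehicle and 81.1 and 77.9 CPM in the high dose and fell by 0.29 (SE 0.053, adjusted p 0.000254). All 3 were without overlap, and none was called between high and low dose. Among immediate early and ERK feedback genes 3 of 25 were higher and 1 lower, beside 9.82% and 8.69% of all genes, and with no filter 8 were higher. DUSP6, the ERK phosphatase, was at 0.41 ± 0.055, MYC at 0.43 ± 0.056 and JUND at 0.52 ± 0.081, the last at 0.31 without Samul-tang high replicate 2.

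Of the DNA replication genes most were lower than in vehicle at the high dose. Of 28 genes 19 were lower and 0 higher than in vehicle at the high dose (median -0.22), 10 lower and 2 higher at the medium dose and 12 lower and 0 higher at the low dose, beside 8.69%, 9.57% and 4.79% of all genes called lower. The high dose count was 12 without Samul-tang high replicate 3. Between high and low dose 0 were called by edgeR or DESeq2, 5 had an unadjusted p under 0.05, and the median was -0.04. E2F2, an activator of S phase genes (chromosome 1, 23506430 to 23531220), was at 17.6, 17.5 and 17.8 CPM in vehicle, 12.5 and 12.9 CPM in the low dose, 9.74 and 13.4 CPM in the medium dose and 9.78 and 10.6 CPM in the high dose. No extract library reached the vehicle level, with -0.80 ± 0.095 at the high dose (adjusted p 5.2e-07). E2F1 was at 56.2, 64.5 and 61.4 CPM in vehicle and 43.2 and 44.7 CPM in the high dose (-0.47 ± 0.061, adjusted p 2.47e-06). The helicase subunits MCM3 (-0.29 ± 0.047) and MCM6 (-0.31 ± 0.058), the origin protein ORC1 (-0.35 ± 0.059) and UHRF1, which carries DNA methylation through replication (-0.34 ± 0.064), fell. Mitosis genes did not go with them: 3 of 24 were higher and 0 lower (median 0.05), with the kinesin CENPE at 0.29 ± 0.063. Under the GC and length offset 4 mitosis genes were called lower, and with no filter 6 were called higher. The cell cycle inhibitor CDKN1A (p21) was at 133, 118 and 119 CPM in vehicle and 118 and 127 CPM in the high dose, which overlap (-0.01 ± 0.059, adjusted p 0.939). MDM2, another p53 target, was not called either (-0.11 ± 0.098, adjusted p 0.491).

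The promoter of E2F2 (chr1:23531234-23531483, minus strand) holds the E2F site TTTGGCGC, in capitals, with its first base 42 bases before the start.
E2F2: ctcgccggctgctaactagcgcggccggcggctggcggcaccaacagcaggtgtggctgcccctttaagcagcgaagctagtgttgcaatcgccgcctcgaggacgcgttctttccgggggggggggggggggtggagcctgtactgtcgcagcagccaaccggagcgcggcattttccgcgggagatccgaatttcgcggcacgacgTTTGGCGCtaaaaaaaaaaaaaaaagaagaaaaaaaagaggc
This motif, searched as TTTCGCGC or TTTGGCGC, stood in 7 of 25 replication genes, beside 1.2% of all genes, in 6 of the 17 called lower or higher and in 1 of 8 not called.

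HAMP, the gene of the iron hormone hepcidin, had a large fall that followed the dose. Hepcidin is secreted by hepatocytes and makes cells degrade the iron exporter ferroportin. HAMP (ENSG00000105697, chromosome 19, 35280716 to 35285143, plus strand) was at 6.27, 6.58 and 5.58 CPM in vehicle, 4.73 and 5.58 CPM in the low dose, 3.28 and 2.97 CPM in the medium dose and 1.81 and 1.68 CPM in the high dose. The low dose lay at or below vehicle, the medium dose below both, and the high dose lowest, with no overlap of high with any of these groups. The log2 change was -1.82 ± 0.17 against vehicle (adjusted p 4.7e-09) and -1.57 ± 0.18 against the low dose (adjusted p 1.86e-06). In the alternatives the first value ran from -1.88 to -1.76. The single Sagunja-tang high library was at 4.81 CPM.

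Other genes of the BMP and SMAD path moved in the same direction in part. List counts here stand beside 8.69% of all genes lower and 9.82% higher against vehicle, and 0.715% and 0.709% against the low dose. ID3, an inhibitor of helix-loop-helix factors and a direct BMP target, was at 14.3, 14.3 and 13.1 CPM in vehicle, 14.5 and 15.7 CPM in the low dose and 9.43 and 8.34 CPM in the high dose. Vehicle and low dose lay together and the high dose below, at -0.64 ± 0.099 (adjusted p 2.9e-05) and -0.76 ± 0.11 (adjusted p 3.64e-05). ID1 was at 89.7, 75.6 and 80.3 CPM in vehicle and 61.5 and 66.8 CPM in the high dose (-0.35 ± 0.077, adjusted p 0.00183), and its call was lost without Samul-tang high replicate 2 (adjusted p 0.0613). SMAD6, an inhibitory SMAD that BMP induces, was at 4.88, 5.50 and 5.10 CPM in vehicle and 3.02 and 3.36 CPM in the high dose (-0.70 ± 0.14, adjusted p 0.000456), while SMAD7, its close relative, was not called (-0.10 ± 0.11, adjusted p 0.595). Of 12 tested genes of this list 5 were lower and 1 higher than in vehicle (median -0.16), 3 lower without Samul-tang high replicate 2. The high dose had 4 lower and 0 higher than the low dose (median -0.27), and 2 were lower without Samul-tang high replicate 2 or low replicate 3. The HAMP promoter (chr19:35282278-35282527, plus strand) holds the SMAD-binding motif GGCGCC, in capitals, with its first base 105 bases before the start, a motif chosen after the HAMP values were seen.
HAMP: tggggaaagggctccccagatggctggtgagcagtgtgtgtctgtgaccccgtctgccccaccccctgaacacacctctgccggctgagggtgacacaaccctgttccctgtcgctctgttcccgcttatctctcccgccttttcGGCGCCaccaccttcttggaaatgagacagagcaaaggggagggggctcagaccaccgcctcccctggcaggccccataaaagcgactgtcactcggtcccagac
GGCGCC stood in 5 of 15 promoters of the list, beside 19% of all genes, with 2 among the 6 called members and 3 among the 6 not called.

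Iron handling genes beside HAMP went several ways. The list counts below stand beside 9.82% of all genes higher and 8.69% lower. FTH1, the ferritin heavy chain, whose many pseudogenes make its level uncertain, was at 1852, 1908 and 1791 CPM in vehicle and 2750 and 2594 CPM in the high dose (0.53 ± 0.07, adjusted p 3.08e-06). SLC40A1, ferroportin, was at 49.5, 47.1 and 49.6 CPM in vehicle and 36.6 and 37.2 CPM in the high dose and fell by 0.40 (SE 0.055, adjusted p 5.67e-06). The transferrin receptor TFRC was not called (0.03 ± 0.067, adjusted p 0.797). CP, ceruloplasmin, the plasma ferroxidase, rose from 238, 232 and 254 CPM to 348 and 361 CPM (0.55 ± 0.055, adjusted p 1.52e-08), and its low dose libraries were as high, at 344 and 364 CPM. Of 25 iron and heme genes 6 were higher and 4 lower (median -0.04), with 2 lower without Samul-tang high replicate 3 or vehicle replicate 2. The haematopoietic growth factor list had 3 of 10 higher and 1 lower, the higher count being 1 without Samul-tang high replicate 2. THPO, thrombopoietin, which the liver secretes, was at -0.17 ± 0.11 (adjusted p 0.282).

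Secreted liver proteins did not fall together against vehicle. Counts against vehicle here stand beside 9.82% of all genes higher and 8.69% lower, and those against the low dose beside 0.709% and 0.715%. Of 25 plasma protein genes 3 were higher and 5 lower (median -0.03). Between high and low dose 6 were lower and 0 higher (median -0.24), a count of 0 or 1 when any of the 4 libraries was left out. ALB, albumin, was at 11150, 11310 and 11990 CPM in vehicle, 11670 and 11470 CPM in the low dose and 9476 and 9316 CPM in the high dose, lowest in both high libraries (-0.29 ± 0.057, adjusted p 0.000569). KNG1, kininogen, the source of bradykinin, was at 10.7, 9.81 and 9.53 CPM in vehicle, 10.7 and 9.68 CPM in the low dose, 10.5 and 9.20 CPM in the medium dose and 5.85 and 5.98 CPM in the high dose. The high dose lay below all other Samul-tang and vehicle libraries, by -0.76 ± 0.089 against vehicle (adjusted p 3.79e-07) and -0.78 ± 0.097 against low (adjusted p 4.24e-06). KNG1 was lower still, at 4.88 CPM, in the single Sagunja-tang high library. CFB, complement factor B, was at 165, 168 and 165 CPM in vehicle, 184 and 170 CPM in the low dose and 137 and 133 CPM in the high dose, and fell in both comparisons (-0.30 ± 0.051 and -0.39 ± 0.056). A1BG, a plasma glycoprotein, fell by 0.45. The coagulation factors F5 (0.33 ± 0.065) and F11 (0.42 ± 0.06) and the acute phase inhibitor SERPINA3 (0.44 ± 0.074) rose. Of 22 coagulation and fibrinolysis genes 3 were higher and 2 lower (1 lower without Samul-tang high replicate 3), and of 16 complement and acute phase genes 2 were higher and 1 lower.

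Targets of YAP and TEAD, transcription regulators that respond to cell shape and density, were lower in 7 of 13 and higher in 1 (median -0.27), beside 8.69% and 9.82% of all genes. ANKRD1, a nuclear ankyrin protein and standard YAP readout (chromosome 10, 90912096 to 90921276), was at 12.8, 13.1 and 14.6 CPM in vehicle, 10.6 and 10.0 CPM in the low dose, 12.5 and 10.2 CPM in the medium dose and 6.25 and 5.07 CPM in the high dose. The high dose lay below every other Samul-tang and vehicle library, at -1.25 ± 0.11 against vehicle (adjusted p 3.91e-09) and -0.86 ± 0.13 against low (adjusted p 8.13e-05). In the single Sagunja-tang high library ANKRD1 was at 9.14 CPM. CCN1, a matrix protein, and AMOTL2, which holds YAP at junctions, fell by 0.50 and 0.66 against vehicle. ANKRD1 was the only gene of the list called against the low dose. In the Wnt list 6 of 15 genes were lower and 2 higher, beside the same shares, and omitting Samul-tang high replicate 2 left 1 lower, high replicate 3 left 2 and vehicle replicate 2 left 3. DKK1, a secreted Wnt inhibitor, was at 133, 120.3 and 116 CPM in vehicle, 110.3 and 106 CPM in the low dose and 75.5 and 73.9 CPM in the high dose. It fell in both comparisons, by 0.72 (SE 0.066, adjusted p 3.39e-09) and 0.53 (SE 0.071, adjusted p 1.82e-05).

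Salt and corticosteroid genes held further large changes. SGK1, a kinase that corticosteroids and osmotic stress induce, was at 31.0, 29.4 and 33.7 CPM in vehicle, 31.7 and 33.1 CPM in the low dose, 26.9 and 26.7 CPM in the medium dose and 17.6 and 18.5 CPM in the high dose. The high dose stood far below, at -0.80 ± 0.084 against vehicle (adjusted p 6.12e-08) and -0.85 ± 0.091 against low (adjusted p 4.1e-07). SGK1 was lower still, at 13.25 CPM, in the single Sagunja-tang high library. SCNN1A, a subunit of the epithelial sodium channel that SGK1 keeps at the membrane, was at 15.8, 13.5 and 15.9 CPM in vehicle and 8.81 and 8.60 CPM in the high dose (-0.78 ± 0.089, adjusted p 2.15e-07). ERRFI1, another steroid-inducible gene, went up by 0.38 ± 0.046, and of 10 corticosteroid-responsive genes 1 was higher and 3 lower. AQP3, a water and glycerol channel, was at 1.39, 1.71 and 2.12 CPM in vehicle, 2.04 and 1.96 CPM in the low dose and 4.02 and 3.77 CPM in the high dose, higher than all other Samul-tang and vehicle libraries (1.16 ± 0.16, adjusted p 6.94e-06). SLC5A11, a sodium-coupled inositol carrier, was at 1.72, 1.6 and 1.53 CPM in vehicle and 2.45 and 3.48 CPM in the high dose (0.87 ± 0.19, adjusted p 0.00177), a call lost without Samul-tang high replicate 3 (adjusted p 0.0905). In the clock list of 16 genes 1 was higher and 3 lower, with TEF at -0.54 ± 0.088. The corticosteroid and clock counts stand beside 9.82% of all genes higher and 8.69% lower.

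The remaining genes with the largest changes belong to no one path. TMCC1, a protein of ER contact sites (chromosome 3, 129647792 to 129893606), was at 27.1, 27.6 and 27.6 CPM in vehicle, 46.3 and 46 CPM in the low dose, 58.9 and 51.8 CPM in the medium dose and 80.7 and 73.0 CPM in the high dose, so each dose lay above the one before it (1.48 ± 0.072, adjusted p 1e-15). SPP1, osteopontin, was at 323, 309 and 324 CPM in vehicle, 439 and 440.3 CPM in the low dose and 702 and 693 CPM in the high dose (1.13 ± 0.1, adjusted p 8.32e-08). PPP2R2C, a regulatory subunit of protein phosphatase 2A, was at 3.41, 3.10 and 3.98 CPM in vehicle and 7.95 and 7.93 CPM in the high dose (1.19 ± 0.13, adjusted p 1.12e-07), and at 6.34 and 6.99 CPM in the low dose. TMCC1 and SPP1 rose against the low dose too, and PPP2R2C did not pass that test. On the lower side, ZNF850 (-0.87 ± 0.15), SFT2D2 (-0.87 ± 0.13), EXOC3L4 (-0.86 ± 0.13), CCDC144NL, which has near copies (-0.81 ± 0.12), DTX4 (-0.78 ± 0.09) and IRGQ (-0.74 ± 0.13) fell against vehicle. SFT2D2 and IRGQ were as low at the low dose as at the high dose. HTD2 was at -0.74 ± 0.23 (adjusted p 0.0259), a call lost without vehicle replicate 1 (0.0877) or 3 (0.0625) or without Samul-tang high replicate 2 (0.0803) or 3 (0.191).

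Counts against vehicle in this paragraph stand beside 9.82% of all genes higher and 8.69% lower. Splicing factor genes were higher in 8 of 20 and lower in 1 (median 0.16), with HNRNPH1 at 0.33 ± 0.049 and the kinase CLK3 at 0.36 ± 0.065. Between high and low dose 0 were called by edgeR or DESeq2, 0 had an unadjusted p under 0.05, and the median was 0.01. MALAT1, a nuclear RNA often taken as a sign of nuclear content, was at 403, 390.3 and 426 CPM in vehicle, 306 and 268 CPM in the low dose and 292 and 291 CPM in the high dose (-0.48 ± 0.068, adjusted p 9.2e-06), and did not pass the test against the low dose (adjusted p 0.97). Of 8 tested nuclear and structural noncoding RNA genes 4 were lower and 0 higher than in vehicle (median -0.82), and DESeq2 called 2. The list medians at the medium and low doses were -1.34 and -0.75, and 0 were called between high and low dose (median -0.18). Mitochondrially encoded genes were higher in 5 of 13 and lower in 0 (median 0.47). This count was 0 without Samul-tang high replicate 2, whose mitochondrial share was 16.7%, 0 without vehicle replicate 2, 1 without vehicle replicate 1 and 0 with the offset for GC content and length, and it was 9 by DESeq2 and 13 with no filter. Of 31 nuclear-encoded respiratory chain genes 2 were higher and 3 lower (0 lower without Samul-tang high replicate 3). Cytosolic ribosomal protein genes were higher in 5 of 36 and proteasome genes in 5 of 27, with 0 lower, and both counts were 0 without Samul-tang high replicate 2. The ribosomal count was 3 without vehicle replicate 1, and the proteasome count 2 and 1 without vehicle replicates 2 and 3. With no filter 11 ribosomal genes were higher and 3 lower, and with the offset for GC content and length 6 were higher and 5 lower. MT1F, a metal-binding metallothionein with near copies, was at 55.4, 43.8 and 43.8 CPM in vehicle and 27.5 and 34.3 CPM in the high dose (-0.63 ± 0.14, adjusted p 0.00383). The call of MT1F was lost with the compared groups fitted alone (edgeR adjusted p 0.0658) and without Samul-tang high replicate 2 (log2 change -0.47). Its list had 1 of 14 higher and 4 lower, 1 lower without that library.

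The counts of the other lists stand beside 9.82% of all genes higher and 8.69% lower. Inflammation had 1 of 12 higher and 1 lower, interferon response 2 of 15 higher and 1 lower, with MX1 falling by 0.54 (SE 0.11), and p53 targets 2 of 22 higher and 3 lower, or 7 lower when the compared groups were fitted alone. Bile acid genes had 1 of 14 higher and 1 lower, apolipoproteins 1 of 16 higher and 1 lower, and autophagy and lysosome genes 4 of 23 higher and 4 lower. Oestrogen receptor and target genes had 0 of 7 higher and 1 lower, and ESR1 itself, at 0.330, 0.387 and 0.223 CPM in vehicle and 0.243 and 0.147 CPM in the high dose, was not called (-0.69 ± 0.47, adjusted p 0.331). Serine and one-carbon enzymes had 3 of 13 higher and 1 lower, liver identity factors 4 of 18 higher and 2 lower, sterol uptake and export genes 2 of 15 higher and 2 lower, and sodium, potassium and water transport 3 of 16 higher and 1 lower. Single libraries set several of these small counts. Without Samul-tang high replicate 2 the lower counts were 0 for p53 targets and 1 each for autophagy, liver factors and sterol uptake, and the higher counts 1 each for serine enzymes and sterol uptake. Without high replicate 3 the higher counts were 0 for interferon and 1 each for transport and sterol uptake, and the lower count for autophagy was 2. Among vehicle libraries, leaving out replicate 1 gave 2 lower in autophagy and in interferon, 1 higher in interferon and 1 lower in liver factors. Leaving out vehicle replicate 2 gave 1 higher in sterol uptake and in interferon and 1 lower in liver factors, and leaving out vehicle replicate 3 gave 2 lower in serine enzymes and in apolipoproteins.

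**Figure D4:**
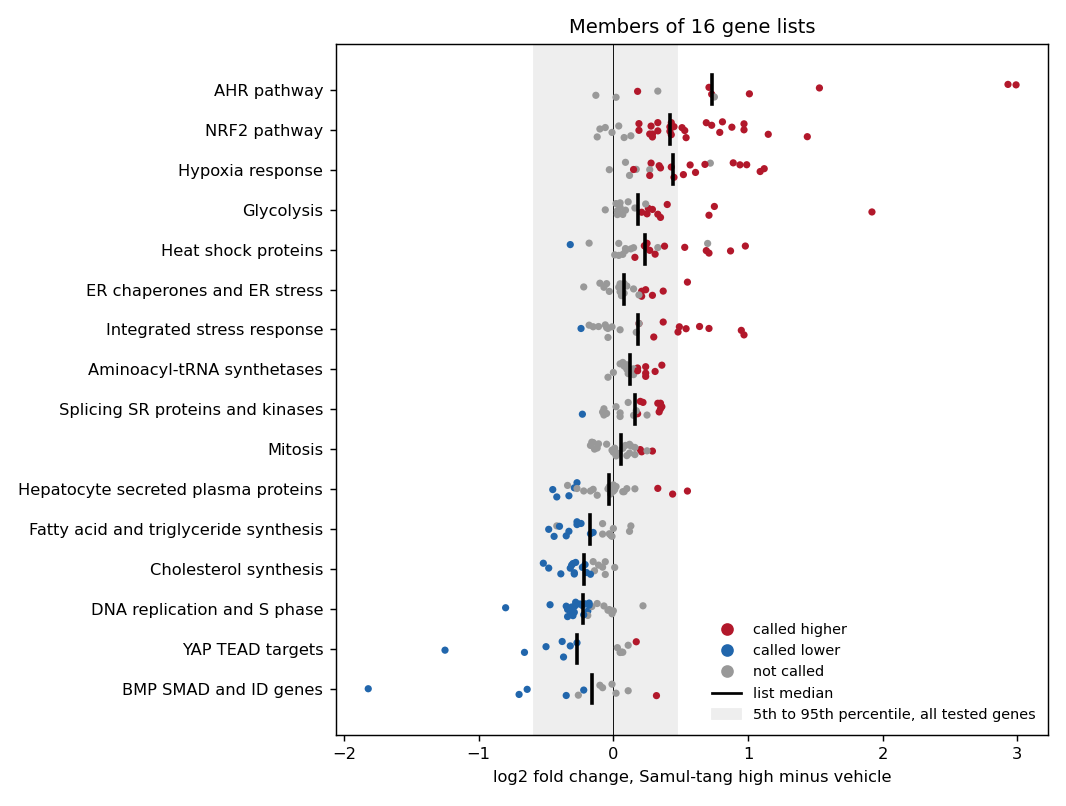
Log2 fold change, Samul-tang high minus vehicle (x axis), of the tested members of 16 gene lists (rows); each point is 1 gene, red where called higher, blue where called lower and grey where not called, and the black bar is the list median. The grey band spans the 5th to 95th percentile of all tested genes, -0.59 to 0.47; the NRF2 points lie mostly right of 0 and the replication and cholesterol points mostly left of it.

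Medians against the low dose were near those against vehicle for some lists, near 0 for some and neither for others. AHR, NRF2, cholesterol, fatty acid, integrated stress response and synthetase lists had medians against the low dose of 0.60, 0.37, -0.20, -0.15, 0.16 and 0.13, beside 0.73, 0.42, -0.22, -0.17, 0.18 and 0.12 against vehicle. Heat shock, splicing and replication lists had 0.02, 0.01 and -0.04 against the low dose, beside 0.23, 0.16 and -0.22 against vehicle. Hypoxia and YAP lists lay between, at 0.21 and -0.13 beside 0.44 and -0.27 against vehicle. BMP and plasma protein lists were lower against the low dose, at -0.27 and -0.24, than against vehicle, at -0.16 and -0.03. Both comparisons share the high dose libraries. At 20 µg/mL, the step at which the label set also changes, 11 heat shock and 7 splicing genes were called higher than vehicle and 12 replication genes lower. The Sagunja-tang libraries carry the same label prefix. At 500 µg/mL the single Sagunja-tang library had 121 CPM of HSPA1A and 7.23 CPM of SLC2A4, beside the Samul-tang values above, and 417 CPM of CYP1A1 and 201 CPM of AKR1B10, above those of Samul-tang. With 1 library these values have no replicate check.

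**Figure D5:**
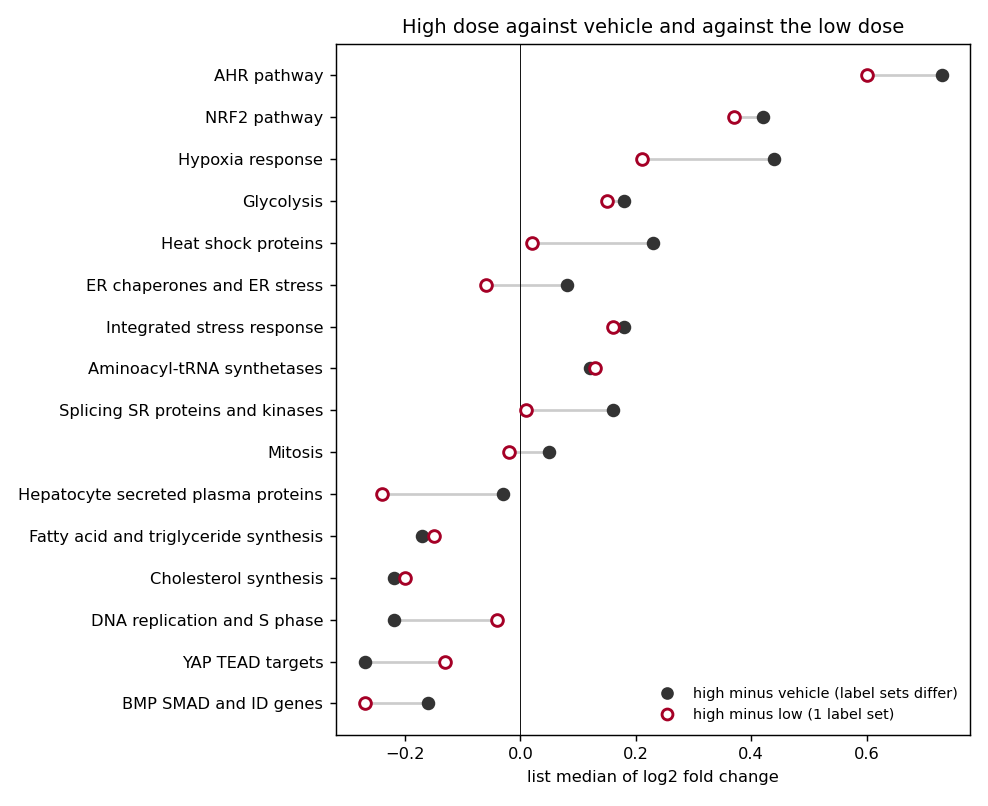
Median log2 fold change (x axis) of the tested members of 16 gene lists (rows), filled circles for Samul-tang high minus vehicle, open circles for high minus low. The 2 circles lie close together for the NRF2 (0.42 and 0.37) and cholesterol (-0.22 and -0.20) lists and apart for heat shock (0.23 and 0.02) and replication (-0.22 and -0.04).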

How the data were processed

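The 30 libraries are strand-specific, paired-end RNA-seq libraries of HepG2 cells, per the labels' protocols. The authors deposited 1 table of expected counts for 60675 Ensembl genes, and the submitters' processing notes name RSEM 1.3.3 and STAR 2.7.3a, with Trim Galore 0.6.5 and FastQC 0.11.9. Because ambiguous reads are divided by estimate, 8.56% of values had decimals, and near-identical genes are uncertain. A further 240 columns of the table match no sample analysed here and were not used.

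Expected counts were rounded, filtered with filterByExpr (minimum count 10, minimum total 15), scaled with TMM and fitted with edgeR 4.0.16 (R 4.3.3, glmQLFit, robust) over the 27 libraries of 10 groups, with 17 residual degrees of freedom and a coefficient of variation of 5.47%. Groups were tested two-sided with glmQLFTest in 4 comparisons and adjusted by Benjamini-Hochberg over 16083 genes at 0.05. Standard errors were derived from each F statistic and its log2 fold change. The members and the 46 lists were chosen with earlier results of these data known, and 2 list symbols (ARNTL and RN7SK) matched no row. Some genes are in several lists, such as SLC7A11 and CEBPB, so list counts are not independent of each other.

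Named were up to 14 called genes in each direction, ranked by log2 fold change, at a mean log2 CPM of at least 2 and no overlap of libraries, the 4 best-ranked members of a list by adjusted p, list regulators, and CYP1A1, AKR1B10, HMOX1, ALB, CDKN1A, DDIT3 and CYP3A4. CYP1A2, AHRR, GCLC, GCLM, SRXN1, OSGIN1, PIR, TKT, GSTA1, IDI1, ANKRD37, IGFBP1, HSPA5, DDIT4, MCM6, UHRF1, SMAD7, TFRC, THPO, MDM2 and LYZ were chosen after their values were seen. Some genes are not reported here. Symbols came from a table matching 56558 identifiers, 41209 with a symbol, and gene positions from GENCODE 29 on GRCh38. Promoter windows are the 250 bases before each start in RefSeq (GRCh38.p14), searched on both strands over 27305 genes.

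On simulated counts for Samul-tang high against vehicle (15885 genes), recovery was 30% for 1.2-fold changes, 54% for 1.5-fold, 70% for 2-fold and 88% for 3-fold, with calls in 10 of 15687 unchanged genes. Only 50 genes per fold were changed there, and all others had equal means in every group, with no shift between label sets. Recovery and false calls in the real comparison, with 18.5% of genes called, may therefore differ. Replicate pairs within vehicle and within each Samul-tang dose differed by 6.08 to 34.5 times counting noise as a mean chi-square per gene, so none of these pairs was a library deposited again. Other pairs were not compared. Alternatives were DESeq2 1.42.0, median-ratio factors, omission of the low-count filter, a fit to the compared groups only, a replicate block, omission of single replicates, and, added after seeing the data, an offset for GC content and length, a spread without Samul-tang medium replicate 3 and a table without mitochondrially encoded genes.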

Additional observations from a re-analysis of the deposited data

How the results depend on the processing

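Among 128 named genes tested in Samul-tang high against vehicle, 114 were called, and 112 of these had a value under all 13 alternatives. AHRR and CYP1A2 had no adjusted p from DESeq2, and CYP1A2 none when the compared groups were fitted alone. Of the 112, 107 kept the call under all 13 and 110 under those that left no library out. Of the 114, 6 lost it when a replicate was left out and 0 changed sign in the alternatives that gave a value, and 0 uncalled genes gained a call.

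With single replicates left out, the genes called in high against vehicle ran from 1300 to 2387 (higher 755 to 1318, lower 545 to 1092). In medium against vehicle they ran from 747 to 4675 (higher 457 to 2432, lower 290 to 2243), in low against vehicle from 604 to 1436 (higher 361 to 840, lower 243 to 596) and in high against low from 85 to 108 (higher 48 to 66, lower 33 to 54). Fitted alone, medium against vehicle left 261 calls, 132 higher and 129 lower. Leaving out Samul-tang low replicate 3 gave 604 of the low dose calls, leaving out low replicate 2 gave 693, and leaving out vehicle replicate 2 gave 1047. The medium count was 747 without Samul-tang medium replicate 2 and 4675 without replicate 3, the library that lay at -11.4 on the first principal component. With no filter on low counts, high against low gave 376 calls, 230 higher, so that 61.2% were higher beside 49.8%. With the offset for GC content and length, 173 genes were lower there. The cause of these shifts was not tested.

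The uncalled CDKN1A changed sign to 0.01 with no filter and with the GC and length offset, to 0.06 without vehicle replicate 1 and to 0.04 without Samul-tang high replicate 2, with a range of -0.05 to 0.06 over single omissions. The uncalled CYP3A4 changed to 0.02 without vehicle replicate 1 and 0.40 without Samul-tang high replicate 2, with a range of -0.95 to 0.40.

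With the replicate number as a block, 2987 genes were called in high against vehicle, and 256 in high against low, beside 229 without the block. The high and vehicle groups share only the numbers 2 and 3. Replicate 2 minus replicate 3 correlated across 9629 genes between high and vehicle at r = 0.271, genes not being independent replicates, and the numbers were not shown to pair the samples. Whether they pair the Samul-tang doses with each other was not checked.

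DESeq2 called 2819 genes in high against vehicle, and the fit without mitochondrially encoded genes called 3015. At an unadjusted p under 0.05 edgeR had 5096 genes there and 1600 in high against low. Between 21570416 and 37707232 expected counts per library limit the genes under about 1 CPM.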
